A study of Mus musculus with 9 samples.

Results

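Nat1 and Nat2, which encode arylamine N-acetyltransferases, and Tnfaip3, which encodes the ubiquitin-editing protein A20, were followed in endothelial cells sorted from mouse brain. They are 3 of the 23420 genes in the deposited expression matrix and were taken by symbol, with earlier results of these data known. Bulk RNA was measured in 9 libraries of 3 genotypes with 3 libraries each, APP/PS1xRIPK1KD, APP/PS1 and WT. All mice were of the C57BL/6 strain, 6 months old and labelled male, and each library came from 20000 brain cells that carried CD31, an endothelial surface protein, and lacked CD45, the leukocyte surface protein. APP/PS1 mice carry transgenes for amyloid precursor protein and presenilin 1 and serve as a model of cerebral amyloid deposition, and the APP/PS1xRIPK1KD mice combine these transgenes with an altered Ripk1. The meaning of KD and the promoters of the transgenes are not given in the sources used here. Ripk1 itself had 31.4, 44.9 and 35.5 CPM (read counts relative to library size) in APP/PS1xRIPK1KD, 75.3, 52.9 and 40.9 CPM in APP/PS1 and 45.0, 48.1 and 34.9 CPM in WT, so its transcript was present in every library of every genotype.

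Arylamine N-acetyltransferases move an acetyl group from acetyl-CoA onto aromatic amines and hydrazines, and are best known for the inactivation or activation of drugs and carcinogens. The numbering differs between species: mouse Nat2, the more widely expressed mouse enzyme, is regarded as the counterpart of human NAT1. A20 is made in response to NF-kB and acts back on the same pathway: it edits ubiquitin chains on proteins that gather at the tumour necrosis factor receptor, among them the kinase RIPK1, and so restrains both NF-kB signalling and cell death. In mice, loss of A20 is known to release inflammation and RIPK1-dependent death in several tissues.

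The libraries held 16263792 to 52413200 expected counts, the smallest being APP/PS1 replicate 1, and 3 counts, used here as the limit of detection, were worth 0.0541 to 0.189 CPM. Summed over 8 endothelial markers, the level was 15041 to 16073 CPM in APP/PS1xRIPK1KD, 13102 to 15474 CPM in APP/PS1 and 13681 to 15297 CPM in WT. The labels call all mice male, but Xist, which is transcribed from the inactive X chromosome, stood at 264 to 534 CPM in replicates 1 and 2 of every genotype, where Y-linked genes summed to at most 0.434 CPM. In replicate 3 of each genotype Xist was at most 4.78 CPM and Y-linked genes summed to 150 to 185 CPM. This split lies across the genotypes evenly, and the comparisons are also given within replicates 1 and 2. Markers of other cells were not even: 10 mural markers summed to 62.2 to 253 CPM in APP/PS1xRIPK1KD, 174 to 227 CPM in APP/PS1 and 10.2 to 53.9 CPM in WT, and 4 choroid plexus markers to 168 to 302, 51.3 to 137 and 41.3 to 67.1 CPM in the same order of genotypes. Lower in level, 6 fibroblast markers summed to 2.06 to 7.26, 6.82 to 13.4 and 0.132 to 1.24 CPM, with Lum at 0 in every genotype. The sums of 7 astrocyte markers were 4.69 to 10.5, 9.39 to 15.9 and 2.48 to 5.16 CPM, with Gjb6, Ntsr2 and Aldh1l1 at 0 in WT, and those of 6 oligodendrocyte markers 5.23 to 11.8, 8.81 to 50.1 and 2.51 to 7.92 CPM, with Mog at 0 in WT. In APP/PS1 every library lay above every WT library for the mural, fibroblast, astrocyte and oligodendrocyte sums. For the sums of all other lists these genotypes overlapped. Among all single genes tested, 5.43% stood apart in this direction in APP/PS1 against WT. Immune markers, of interest because A20 is also made by immune cells, overlapped between genotypes: 7 microglial markers summed to 63.2 to 76.6 CPM in APP/PS1xRIPK1KD, 54.4 to 92.8 CPM in APP/PS1 and 51.4 to 90.05 CPM in WT. The 6 matched leukocyte markers summed to at most 2.33, 1.73 and 2.16 CPM, with the T cell gene Cd3e at 0 in APP/PS1xRIPK1KD and WT.

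Nat1 and Nat2 lie next to each other on the forward strand of mouse chromosome 8 (GRCm38), Nat1 at chr8:67480921-67492104 and Nat2 at chr8:67494858-67502584, with a further copy, Nat3, at chr8:67523854-67548627. Their coding sequences are each 870 bases long, and those of Nat1 and Nat2 differ at 140 bases, an identity of 83.9%. How far reads can be told apart depends on where they fall. The stretch of 90 bases in which the pair is most alike, coding bases 439 to 528, is shown with the differing bases in capitals because a read of 50 bases taken from its middle is the same in both genes:
Nat1, chr8:67491412-67491501, forward strand: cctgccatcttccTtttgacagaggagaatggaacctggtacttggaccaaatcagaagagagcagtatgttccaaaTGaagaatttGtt
Nat2, chr8:67501678-67501767, forward strand: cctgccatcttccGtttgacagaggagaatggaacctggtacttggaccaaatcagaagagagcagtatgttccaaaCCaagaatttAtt
Within it 4 bases differ and 63 bases in a row are identical. The least alike stretch of the same length, coding bases 31 to 120, has 24 differing bases and shows where the genes separate readily:
Nat1, chr8:67491004-67491093, forward strand: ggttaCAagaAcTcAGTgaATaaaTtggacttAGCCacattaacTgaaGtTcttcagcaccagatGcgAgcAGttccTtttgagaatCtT
Nat2, chr8:67501270-67501359, forward strand: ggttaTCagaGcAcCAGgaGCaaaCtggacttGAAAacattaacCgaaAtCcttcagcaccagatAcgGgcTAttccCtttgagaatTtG
Of the 821 windows of 50 bases in the Nat1 coding sequence, 16 or 1.95% also occur in Nat2, and of its 846 windows of 25 bases, the length of the second read, 89 or 10.5% do. Nat3 shares no window of 50 bases with either gene.

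Nat1 was close to the limit of detection. Its expected counts were 0, 27 and 11.10 in the 3 APP/PS1xRIPK1KD libraries, 0, 0 and 0 in APP/PS1, and 17, 55.43 and 0 in WT. Thus 4 of the 9 libraries held any count, and APP/PS1xRIPK1KD and WT each had a library at 0, so that the groups overlapped in every comparison. On the CPM scale the 3 libraries of APP/PS1xRIPK1KD averaged 0.271 ± 0.315 (SD, n = 3), APP/PS1 libraries were all at 0, and WT averaged 0.650 ± 0.736 (SD, n = 3). With a floor of 3 counts in each APP/PS1 library, the mean of WT sets APP/PS1 at least 6.41-fold lower, and the APP/PS1xRIPK1KD mean was at least 2.68-fold higher than APP/PS1. These bounds are on group means and rest on single libraries. That of APP/PS1 against WT was 2.47-fold without WT replicate 2, 9.62-fold without WT replicate 3 and 11.3-fold without APP/PS1 replicate 1, the shallowest library. That of APP/PS1xRIPK1KD against APP/PS1 was 4.01-fold without APP/PS1xRIPK1KD replicate 1 and 4.70-fold without APP/PS1 replicate 1, and there was none without APP/PS1xRIPK1KD replicate 2, where the APP/PS1xRIPK1KD mean fell under the floor.

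Nat2 was measurable in all 9 libraries. Its expected counts were 180, 380 and 316.90 in APP/PS1xRIPK1KD, 70, 353 and 286 in APP/PS1, and 129, 204.57 and 226 in WT. Scaled by library size these became 3.67, 8.67 and 5.71 CPM in APP/PS1xRIPK1KD, 4.41, 6.58 and 5.68 CPM in APP/PS1, and 3.81, 5.40 and 4.84 CPM in WT. Both the lowest and the highest library belonged to APP/PS1xRIPK1KD, and the range of that genotype covered those of the other genotypes. Mean levels were 6.02 ± 2.51 CPM in APP/PS1xRIPK1KD, 5.56 ± 1.09 CPM in APP/PS1 and 4.68 ± 0.810 CPM in WT (SD, n = 3 each), an order in which no neighbours differed beyond their spread.

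Nat1 and Nat2 had non-whole counts only in APP/PS1xRIPK1KD replicate 3 and WT replicate 2, and in both the fractions of the pair added up to a whole number: 11.10 and 316.90 to 328, and 55.43 and 204.57 to 260. Nat1 and Nat2 together held 180, 407 and 328 counts in APP/PS1xRIPK1KD, 70, 353 and 286 in APP/PS1, and 146, 260 and 226 in WT. Nat1 took 0, 6.63 and 3.38% of that sum in APP/PS1xRIPK1KD, none in APP/PS1, and 11.6, 21.3 and 0% in WT. The division between the genes was made by the authors' counting. A whole count does not show that no read matched both genes, so the division is uncertain in every library. Nat3 had 0 counts in all 9 libraries, below 0.189 CPM in the shallowest, and Aanat, the arylalkylamine acetyltransferase of melatonin synthesis, had 0 to 13 counts.

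**Figure D1:**
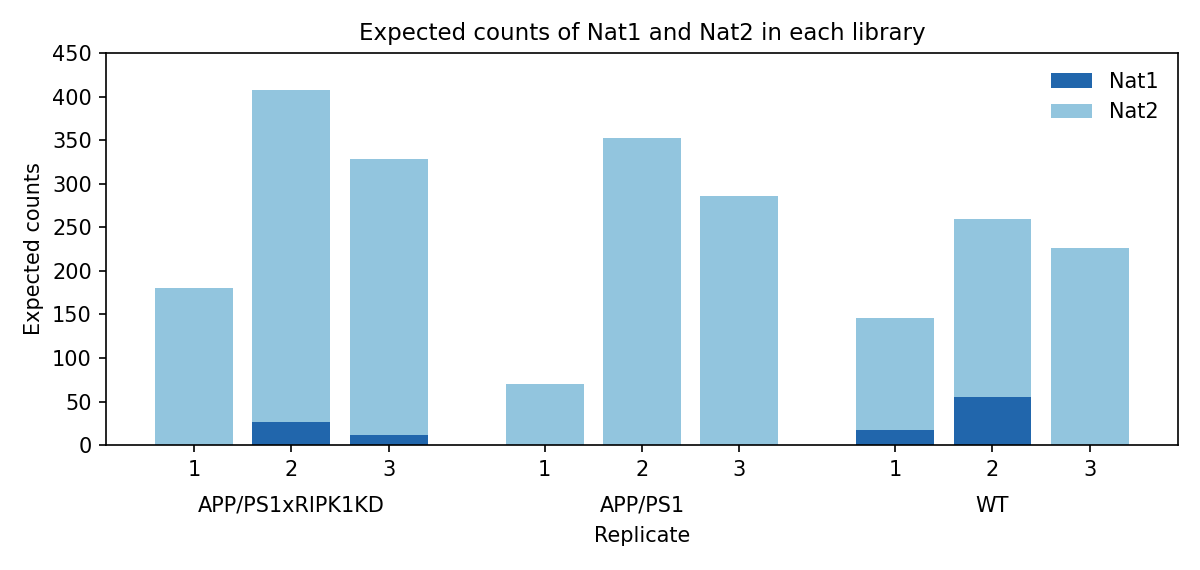
Expected counts of Nat1 and Nat2 in each of the 9 libraries, by genotype and replicate. Nat1 holds counts in 4 libraries and none in APP/PS1, while Nat2 holds 70 to 380 counts in every library.

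Tnfaip3 lies on the reverse strand of chromosome 10, at chr10:19000910-19015657 (GRCm38) in the GENCODE annotation. RefSeq gave 2 promoter windows for Tnfaip3, and the one farthest upstream was used. The transcript start of that window, at base 19015410, lies inside the GENCODE gene, so the stretch below is upstream of this start only. The 30 bases just before this RefSeq transcript start (GRCm38.p6, chr10:19015411-19015440, reverse strand) are shown because they hold letters that match known forms of the NF-kB site, set in capitals:
Tnfaip3 promoter: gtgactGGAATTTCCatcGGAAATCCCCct
The left run matches GGAANTTCC, which reads the same on both strands, and the right run, on the opposite strand, matches the pattern of GGG and CC with any 5 bases between them. Among 32851 promoter windows of 300 bases in RefSeq, 50.8% hold this second pattern on either strand, 0.928% hold GGAANTTCC and 0.706% hold both. The pattern GGAANTTCC was chosen after this promoter had been read, so its share is a description of these letters only.

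Tnfaip3 was detected in every library. It had 1242, 1147 and 934 expected counts in APP/PS1xRIPK1KD, 347, 1717.98 and 839 in APP/PS1, and 641.74, 276 and 698 in WT. These are 25.3, 26.2 and 16.8 CPM in APP/PS1xRIPK1KD, 21.8, 32.0 and 16.7 CPM in APP/PS1, and 18.9, 7.28 and 14.9 CPM in WT. The lowest library of all was WT replicate 2 and the highest APP/PS1 replicate 2. WT replicate 1 lay above replicate 3 of both APP/PS1 genotypes, so the groups overlapped in every comparison. The means were 22.8 ± 5.17 CPM in APP/PS1xRIPK1KD, 23.5 ± 7.81 CPM in APP/PS1 and 13.7 ± 5.93 CPM in WT (SD, n = 3 each), which places both APP/PS1 genotypes side by side and above WT. In such bulk samples fewer cells that express a gene and less of its RNA per cell cannot be told apart.

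**Figure D2:**
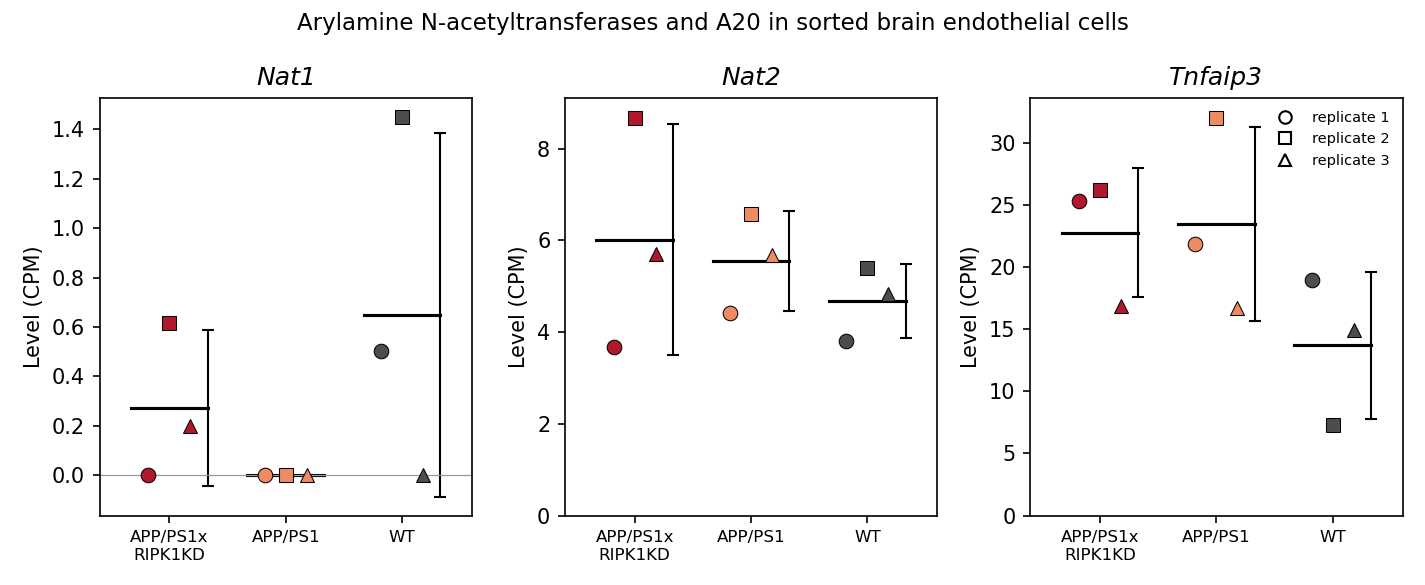
CPM of Nat1, Nat2 and Tnfaip3 in each library (points) with the mean and SD of the 3 libraries of each genotype, APP/PS1xRIPK1KD, APP/PS1 and WT from left to right. Tnfaip3 averages 22.8 and 23.5 CPM in the APP/PS1 genotypes and 13.7 CPM in WT with overlapping points, and Nat1 is at 0 in all APP/PS1 libraries.

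Per kilobase of exon, Nat2 averaged 3.56 ± 1.02 CPM per kb and Tnfaip3 2.77 ± 1.01 CPM per kb over the 9 libraries (SD). The ratio of Tnfaip3 to Nat2 on this scale lay between 0.284 and 1.45, so which of the 2 was higher per length differed between libraries. The counts of Tnfaip3 were higher in every library. The lengths are those of all annotated exons together, 7226 bases from 6 transcripts for Tnfaip3 and 1522 bases from 2 for Nat2. The ratio depends on this choice.

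The comparison of APP/PS1 with WT asks what the amyloid model changes in brain endothelium. In edgeR's quasi-likelihood test with Benjamini-Hochberg adjustment over 13317 genes, 0 of the 3 genes passed an adjusted p of 0.05, against 0.0225% of all genes tested. Nat1 and Tnfaip3 had an unadjusted p under 0.05, as did 6.14% of all genes. The 3 genes were chosen with earlier results of these data known, so this is no measure of an excess over all genes. Nat1 did not pass the count filter with only the 6 libraries compared. Limma-voom and DESeq2 also called 0 of the 3. For Tnfaip3 the log2 fold change was 0.78 ± 0.350 (SE), with a 95% interval of 0.02 to 1.54, an edgeR p of 0.0453 and an adjusted p of 0.796. The exact permutation test of its CPM, two-sided, gave p = 0.2, where 0.1 is the smallest that 3 against 3 libraries allow. The value for Tnfaip3 was 1.04 within replicates 1 and 2 (edgeR adjusted p = 0.414), 0.47 without WT replicate 2 and 0.48 without APP/PS1 replicate 2. For Nat2 it was 0.25 ± 0.407, with an interval of -0.63 to 1.13, an edgeR adjusted p of 0.974 and an exact permutation p of 0.4. With the Nat1 and Nat2 counts summed the log2 fold change was 0.06, with an interval of -0.84 to 0.97. Nat1, for which the fitted fold has no meaning against a group at 0, had an edgeR p of 0.0248, an adjusted p of 0.795 and an exact permutation p of 0.4. In the authors' deposited table of the same comparison, which lists 12460 genes, the adjusted p was 0.111 for Nat1 (unadjusted 0.000561), 0.996 for Nat2 and 0.686 for Tnfaip3, and the log2 fold changes of Nat2 and Tnfaip3 were 0.25 and 0.78.

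The comparison of APP/PS1xRIPK1KD with APP/PS1 asks what the altered Ripk1 does on the amyloid background. Again 0 of the 3 genes passed the adjusted p of 0.05 in edgeR's quasi-likelihood test, against 0.00751% of all genes, and the count was also 0 by limma-voom and DESeq2. Nat1 alone had an unadjusted p under 0.05 (0.0463, adjusted p = 1.00), against 4.78% of all genes. With only the 6 libraries of this comparison Nat1 did not pass the count filter either. The log2 fold change of Tnfaip3 was -0.05 ± 0.347, with an interval of -0.80 to 0.71, and that of Nat2 was 0.11 ± 0.406, with an interval of -0.77 to 0.99. The edgeR adjusted p was 1.00 for both, and the exact permutation p was 1 for Tnfaip3 and 0.8 for Nat2. These intervals leave room for a change of either sign, and both signs turned when single libraries were left out: Tnfaip3 stood at 0.26 without APP/PS1 replicate 2 and Nat2 at -0.24 without APP/PS1xRIPK1KD replicate 2.

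In APP/PS1xRIPK1KD against WT, 0 of the 3 genes passed the adjusted p of 0.05 in edgeR's quasi-likelihood test, against 0.0375% of all genes, and none had an unadjusted p under 0.05, against 6.18% of all genes. Limma-voom and DESeq2 called 0 of the 3 as well. Tnfaip3 had a log2 fold change of 0.73 ± 0.349, with an interval of -0.03 to 1.49, an edgeR p of 0.0572, an adjusted p of 0.825 and an exact permutation p of 0.2. Within replicates 1 and 2 the Tnfaip3 value was 0.98, and without WT replicate 2 it was 0.43. Nat2 had 0.36 ± 0.406, with an interval of -0.52 to 1.24, an edgeR adjusted p of 0.982 and an exact permutation p of 0.5. Nat1 had -1.25 ± 2.01, with an interval of -5.72 to 3.19, an edgeR adjusted p of 0.995 and an exact permutation p of 0.7. The comparison shares its WT libraries with that of APP/PS1 and WT, so the like values of Tnfaip3 in the 2 comparisons rest in part on the same mice. The mural markers, of which all 10 were detected in every genotype, and the fibroblast, astrocyte, oligodendrocyte and choroid plexus markers were also higher in both APP/PS1 genotypes than in WT on average. So were the erythroid markers, at means of 2078 CPM in APP/PS1xRIPK1KD, 2958 CPM in APP/PS1 and 1442 CPM in WT, with APP/PS1 replicate 3 at 5904 CPM. The neuronal markers were lower in both. The part of these markers in the Tnfaip3 values was not tested.

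**Figure D3:**
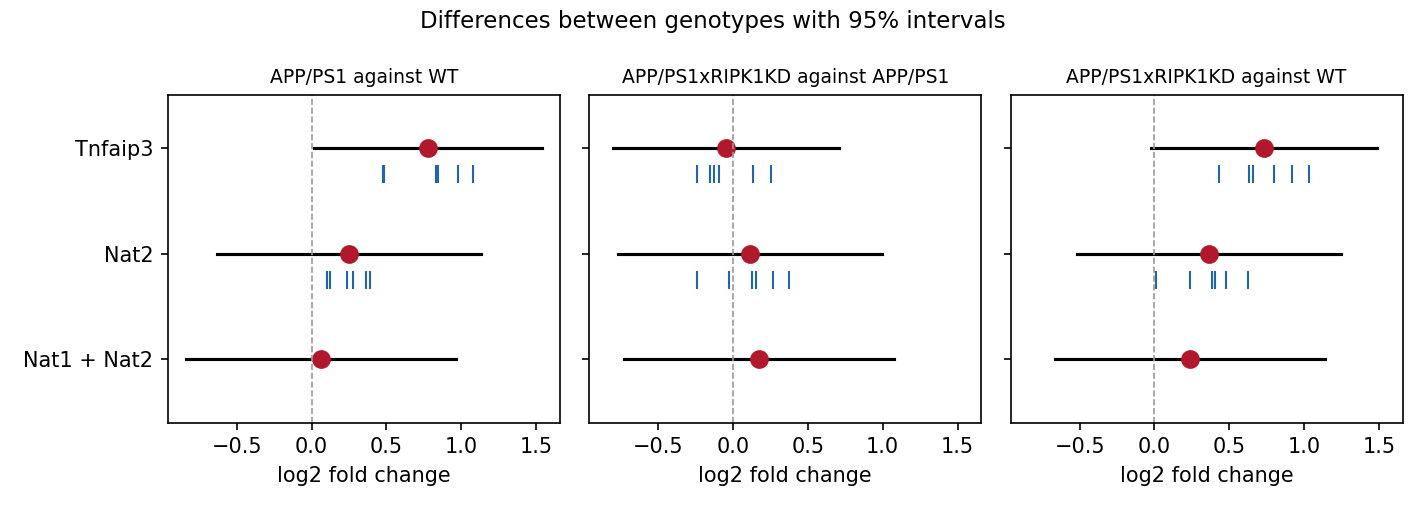
Log2 fold changes of Tnfaip3, Nat2 and the summed counts of Nat1 and Nat2 in the 3 comparisons, with 95% intervals (bars). Ticks give the values with each library left out in turn, for Tnfaip3 and Nat2 only. The interval of Tnfaip3 in APP/PS1 against WT runs from 0.02 to 1.54, and every other interval includes 0.

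The genes around A20 and the acetyltransferases were described through 9 lists with 115 members, of which 102 were tested. None of the 102 passed an adjusted p of 0.05 in edgeR's quasi-likelihood test in any comparison. At an unadjusted p under 0.05 there were 8 in APP/PS1 against WT, 5 higher and 3 lower, or 7.84% against 6.14% of all genes (3.49% higher and 2.65% lower). There were 8 in APP/PS1xRIPK1KD against APP/PS1, 1 higher and 7 lower, or 7.84% against 4.78% (2.44% higher and 2.34% lower). There were 13 in APP/PS1xRIPK1KD against WT, 1 higher and 12 lower, or 12.7% against 6.18% (2.97% higher and 3.21% lower).

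A20 works with partner proteins that bind ubiquitin. Itch, a ubiquitin ligase of the A20 complex, averaged 69.7 CPM in APP/PS1xRIPK1KD, 62.6 CPM in APP/PS1 and 48.2 CPM in WT. Its libraries stood at 80.6, 62.0 and 66.5 CPM in APP/PS1xRIPK1KD, 59.9, 64.3 and 63.7 CPM in APP/PS1 and 53.7, 35.4 and 55.4 CPM in WT. Every library of either APP/PS1 genotype thus lay above every WT library, and the log2 fold change of APP/PS1xRIPK1KD against WT was 0.53 (edgeR adjusted p = 0.662). Groups stood apart in this direction for 6.05% of all genes in that comparison and for 5.43% in APP/PS1 against WT. Tax1bp1, the adaptor that brings A20 to its targets, was at 213, 212 and 202 CPM in APP/PS1xRIPK1KD, APP/PS1 and WT. Tnip1, another ubiquitin-binding partner, was at 30.8, 28.3 and 33.03 CPM, and Rnf11, also a component of the A20 complex, at 14.5, 17.3 and 14.5 CPM in the same order. Ikbkg, the ubiquitin-binding subunit of the IkB kinase, averaged 45.7 CPM in APP/PS1xRIPK1KD, 25.8 CPM in APP/PS1 and 34.3 CPM in WT. The APP/PS1xRIPK1KD libraries of Ikbkg, at 48.2, 48.1 and 40.9 CPM, all lay above the APP/PS1 libraries at 31.4, 16.3 and 29.6 CPM (log2 fold change 0.83, edgeR adjusted p = 0.980), as did 5.32% of all genes. The 9 tested members of the partner list had median log2 fold changes of 0.07 in APP/PS1 against WT, 0.04 in APP/PS1xRIPK1KD against APP/PS1 and 0.00 in APP/PS1xRIPK1KD against WT, against medians of 0.00 over all genes in the 3 comparisons.

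LUBAC, the complex that builds linear ubiquitin chains, and the deubiquitinases that act beside A20 had medians of -0.28, 0.24 and -0.01 over 8 tested genes in the same order of comparisons. Rnf31, the catalytic subunit of LUBAC, averaged 37.6 CPM in APP/PS1xRIPK1KD, 42.0 CPM in APP/PS1 and 53.6 CPM in WT, with a log2 fold change of -0.51 in APP/PS1xRIPK1KD against WT (edgeR adjusted p = 0.706). Cyld, a deubiquitinase that restrains NF-kB as A20 does, was at 31.1, 31.8 and 24.3 CPM in APP/PS1xRIPK1KD, APP/PS1 and WT. Otulin, which cleaves linear chains and is listed in the matrix under its older symbol Fam105b, was at 3.802, 1.738 and 4.052 CPM.

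Among the receptor complex and the substrates of A20, 16 genes were tested. Tnfrsf1a, which encodes a tumour necrosis factor receptor, averaged 86.4 CPM in APP/PS1xRIPK1KD, 93.5 CPM in APP/PS1 and 126 CPM in WT. Its log2 fold change was -0.42 in APP/PS1 against WT and -0.54 in APP/PS1xRIPK1KD against WT, and neither passed after adjustment in edgeR. Ripk1 was at 37.3 CPM in APP/PS1xRIPK1KD, 56.3 CPM in APP/PS1 and 42.7 CPM in WT, and its log2 fold change of APP/PS1xRIPK1KD against APP/PS1 was -0.59 (edgeR adjusted p = 0.980). Malt1, the protease that can cleave A20, and the ubiquitin-conjugating enzymes Ube2n and Ube2d3 had log2 fold changes of 0.59, 0.34 and 0.38 in APP/PS1 against WT, each at an unadjusted edgeR p under 0.05. Of the 8 genes of the death branch, 1 had an unadjusted edgeR p under 0.05 in APP/PS1xRIPK1KD against WT, against 6.18% of all genes, and none in the other comparisons. This was Zbp1, a sensor that can start necroptosis, which averaged 5.96 CPM in APP/PS1xRIPK1KD, 6.87 CPM in APP/PS1 and 19.6 CPM in WT, where WT replicate 3 alone held 47.3 CPM (log2 fold change -1.72, edgeR adjusted p = 0.776).

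NF-kB feedback genes and endothelial NF-kB targets could show whether other targets of the pathway stood with Tnfaip3. Of 20 tested, 10 were above 0 and 10 below in APP/PS1 against WT, 3 above and 17 below in APP/PS1xRIPK1KD against APP/PS1, and 6 above and 14 below in APP/PS1xRIPK1KD against WT. The median log2 fold changes were 0.03, -0.19 and -0.15, and 50.2, 49.4 and 50.6% of all genes were above 0. Nfkbia, the IkB protein that is itself a target of NF-kB, was at 771 CPM in APP/PS1xRIPK1KD, 801 CPM in APP/PS1 and 881 CPM in WT, and Birc3, an NF-kB-induced ubiquitin ligase, at 20.7, 19.2 and 23.99 CPM. Traf1, an NF-kB-induced adaptor, had 9.38, 7.19 and 9.15 CPM in APP/PS1xRIPK1KD, 13.0, 12.8 and 13.9 CPM in APP/PS1 and 8.26, 3.19 and 9.33 CPM in WT. The APP/PS1 libraries of Traf1 lay above all others, with a log2 fold change against WT of 0.93 (edgeR adjusted p = 0.795). APP/PS1 libraries lay above all WT libraries for 5.43% of all genes, and above all APP/PS1xRIPK1KD libraries for 4.66%. The adhesion molecule Icam1 averaged 56.0 CPM in APP/PS1xRIPK1KD, 96.9 CPM in APP/PS1 and 72.3 CPM in WT (log2 fold change of APP/PS1xRIPK1KD against APP/PS1 -0.79). Its APP/PS1xRIPK1KD libraries, at 55.2, 43.7 and 69.1 CPM, all lay below the APP/PS1 libraries at 91.0, 119 and 80.9 CPM, as did 4.66% of all genes. Vcam1, also an adhesion molecule, averaged 139, 284 and 206 CPM in the same order of genotypes, with WT libraries between 29.97 and 441 CPM. Nfkbie, another IkB protein, was at 1.37, 3.24 and 5.72 CPM in APP/PS1xRIPK1KD, APP/PS1 and WT, with a log2 fold change of -2.05 in APP/PS1xRIPK1KD against WT (edgeR adjusted p = 0.596).

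**Figure D4:**
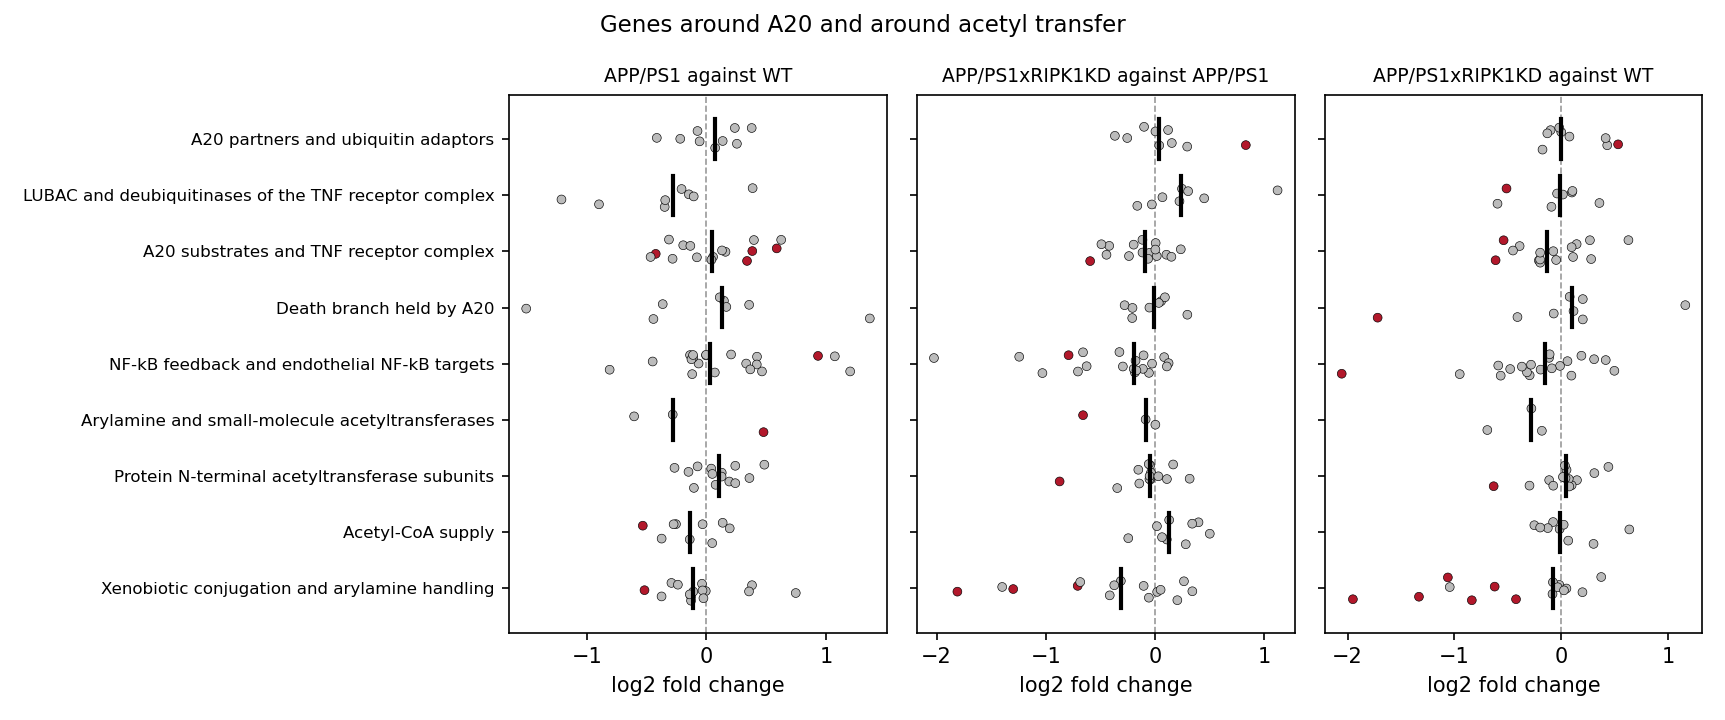
Log2 fold changes of the tested members of the 9 gene lists around A20 and the acetyltransferases in the 3 comparisons, with list medians as black bars and genes at an unadjusted edgeR p under 0.05 in red. The medians of the NF-kB list are 0.03, -0.19 and -0.15, and no gene passes after adjustment.

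On the acetyltransferase side, the other small-molecule acetyltransferases were mostly too low to test, with 3 of 8 left. Sat1, which acetylates polyamines, averaged 134 CPM in APP/PS1xRIPK1KD, 212 CPM in APP/PS1 and 152 CPM in WT. Its log2 fold change was 0.48 in APP/PS1 against WT and -0.66 in APP/PS1xRIPK1KD against APP/PS1 (edgeR adjusted p = 0.795 and 0.980). The list of protein N-terminal acetyltransferase subunits also holds Nat10, which despite its symbol acetylates RNA and is no arylamine enzyme, and which averaged 8.73 CPM in APP/PS1xRIPK1KD, 16.0 CPM in APP/PS1 and 13.5 CPM in WT. The medians of its 14 genes were 0.10, -0.05 and 0.04. Among 9 genes of acetyl-CoA supply, Acat1, a mitochondrial thiolase, had 51.3 CPM in APP/PS1xRIPK1KD, 42.2 CPM in APP/PS1 and 61.1 CPM in WT, and its APP/PS1 libraries lay below all WT libraries (log2 fold change -0.53, edgeR adjusted p = 0.787), as 5.44% of all genes did.

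The enzymes that handle arylamines and other foreign compounds beside the Nat genes included the list members with the smallest unadjusted p in APP/PS1 against WT and in APP/PS1xRIPK1KD against WT. Of 15 tested, 6 had an unadjusted edgeR p under 0.05 in APP/PS1xRIPK1KD against WT, all 6 lower, against 3.21% of all genes lower at that level. The median log2 fold change of the 15 was -0.08, with 4 above 0. Por, the reductase that feeds electrons to cytochromes P450, had 117, 98.7 and 98.1 CPM in APP/PS1xRIPK1KD, 122, 98.6 and 116 CPM in APP/PS1, and 153, 175 and 155 CPM in WT. All libraries of both APP/PS1 genotypes lay below those of WT, with log2 fold changes of -0.62 in APP/PS1xRIPK1KD (edgeR adjusted p = 0.270) and -0.52 in APP/PS1 (edgeR adjusted p = 0.711). Groups stood apart in this direction for 5.99 and 5.44% of all genes. DESeq2 called Por in APP/PS1xRIPK1KD against WT (-0.62, adjusted p = 0.0126) and with it Sult1a1, a sulfotransferase of phenols and arylamines (-0.83, adjusted p = 0.0431). Sult1a1 averaged 92.2 CPM in APP/PS1xRIPK1KD, 151 CPM in APP/PS1 and 165 CPM in WT. Gsta4, a glutathione transferase named after its values were seen, had 18.9, 81.9 and 15.9 CPM in APP/PS1xRIPK1KD, 136, 151 and 123 CPM in APP/PS1, and 143, 171 and 137 CPM in WT. With all libraries, the edgeR log2 fold change of Gsta4 in APP/PS1xRIPK1KD was -1.81 against APP/PS1 (adjusted p = 0.980) and -1.95 against WT (adjusted p = 0.647). Replicate 2 of APP/PS1xRIPK1KD stood between the other replicates of its genotype and the other genotypes, and without it the values were -2.96 (edgeR adjusted p = 6.00e-05) and -3.10 (edgeR adjusted p = 3.97e-05). The second pair of values leaves out the library that differed most from the others of its genotype and gives no call for the genotype as a whole.

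Across the 9 libraries the levels of Nat2 and Tnfaip3 were hardly related, with Pearson's r of 0.13 and Spearman's rho of 0.22 on log2 CPM. Among 9725 tested genes of at least 5 CPM on average, the 5 genes whose profile was most like that of Tnfaip3 were Ints12 (r = 0.95), a subunit of the Integrator complex, Vps4b (0.94), an ATPase of membrane scission, Lats1 (0.94), a kinase of the Hippo pathway, and the zinc finger genes Zbtb1 (0.93) and Zfp110 (0.92). Without the 2 libraries in which Tnfaip3 was farthest from its median, r for these genes was 0.69 to 0.87. The genes most like Nat2 were Thsd1 (r = 0.91), Ctsf (0.89), which encodes cathepsin F, Ncapd3 (0.88), a condensin subunit, Smarca2 (0.88), a chromatin remodelling ATPase, and Stk11ip (0.88). Of the genes in the lists, Itch ranked 43 by likeness to Tnfaip3 (r = 0.82, rho = 0.53) and Nfkb1, the NF-kB subunit, 54 (r = 0.81, rho = 0.88). Between them, at 50, stood Naa38 of the protein N-terminal acetyltransferase list (r = 0.82, rho = 0.57). Without the same 2 libraries r was 0.48 for Itch, 0.32 for Naa38 and 0.73 for Nfkb1. Nfkbia ranked 7857 (r = -0.38, and 0.09 without those libraries). The 17 NF-kB genes above the level limit had a median r with Tnfaip3 of 0.29, with 11 above 0, and a median of 0.42 for deviations from the genotype means. The medians over all 9725 genes were -0.02 and 0.00. Without WT replicate 2 and APP/PS1 replicate 2, the same 2 libraries as above, the positive relation of the list to Tnfaip3 was lost. Its r was then above 0 only for Nfkb1 (0.73), Tnfaip2 (0.52) and Nfkbia (0.09). For all other genes of the list r was below 0, down to -0.90 for Vcam1 and Nfkbib. All these values describe the list without a test. These are descriptions over 9 libraries, which share their cells' source and the library preparation, and the highest of 9725 correlations are high by selection.

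Within 500 kb of the Nat1 to Nat2 interval, Nat3 was the only other protein-coding gene of the annotation. Within 500 kb of Tnfaip3, the tested genes were Hebp2, at 1.56, 2.30 and 1.13 CPM, and Perp, an effector of p53, at 4.04, 2.64 and 0.776 CPM in APP/PS1xRIPK1KD, APP/PS1 and WT. Gm4922 and Olig3 were too low to test, and Arfgef3 was not analysed here. The log2 fold change of Perp in APP/PS1xRIPK1KD against WT was 2.37 (edgeR adjusted p = 0.721).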

How the data were processed

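RNA from sorted brain endothelial cells was turned into Smart-seq2 libraries from 1.5 ng of RNA with 12 cycles of PCR and sequenced with reads of 50 and 25 bases, per the labels' protocols, which describe no strand marking and no molecular identifiers, so reads from overlapping antisense genes cannot be told apart and intervals cover no amplification error. The submitters' processing notes name Bowtie 0.12.2, RSEM, edgeR 3.10.2 and the builds mm10 and GRCm38. The authors deposited RSEM expected counts per gene, in which a read that fits several genes is divided among them, and 28.3% of the values are not whole. They also deposited a table of APP/PS1 against WT with log2 fold changes and log2 CPM, a likelihood-ratio score, and p-values with adjusted values.

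Expected counts were rounded and tested with edgeR 4.0.16 (R 4.3.3): TMM scaling, a minimum count of 10, a quasi-likelihood fit with 1 term per genotype over all 9 libraries, and Benjamini-Hochberg adjustment at 0.05 over 13317 of 23420 genes. The fit was tested on simulated data. All p-values are two-sided. Each library came from 1 mouse per the labels, and the p-values measure the spread between these libraries. Rn45s, a ribosomal precursor, took 15.8 to 33.8% of each library and was kept in. CPM uses the TMM-scaled totals; log2 CPM for correlations had a prior count of 2. Limits of detection are 3 counts and cover counting error only. Alternatives were DESeq2 1.42.0, limma-voom (limma 3.58.1), RLE scaling, no filter, only the 6 libraries compared, a replicate block, no Rn45s, replicates 1 and 2 only, and each library left out.

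The genes and lists were chosen with earlier results of these data known. Named genes are the 3 genes, a fixed set of A20 partners and targets, and in each list the 2 smallest unadjusted p-values per comparison. Gsta4 was named after its values were seen. Coding sequences and positions came from GENCODE M21 (GRCm38) and promoters from RefSeq.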

Additional observations from a re-analysis of the deposited data

How the results depend on the processing

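Of 127 repeats of the tests of Nat1, Nat2 and Tnfaip3 under other settings, 121 kept the direction and the side of the threshold of the reported value, and none passed an adjusted p of 0.05. The other 6 changed sign. The 121 include 13 repeats of Nat1 in APP/PS1 against WT and 13 in APP/PS1xRIPK1KD against APP/PS1. With Nat1 at 0 in every APP/PS1 library, the sign of these could hardly change, so they say little about the settings. For Nat2 in APP/PS1xRIPK1KD against APP/PS1 the log2 fold change was -0.065 with limma-voom, -0.03 without APP/PS1 replicate 1 and -0.24 without APP/PS1xRIPK1KD replicate 2, and its leave-one-out range was -0.24 to 0.38. For Tnfaip3 in that comparison it was 0.26 without APP/PS1 replicate 2 and 0.13 without APP/PS1xRIPK1KD replicate 3, in a range of -0.24 to 0.26. For Nat1 in APP/PS1xRIPK1KD against WT it was 0.12 without WT replicate 2, in a range of -2.65 to 0.12. The cause was not tested. With each library left out, Tnfaip3 ranged from 0.47 to 1.08 in APP/PS1 against WT and from 0.43 to 1.04 in APP/PS1xRIPK1KD against WT. Nat1 and Nat2 rows were summed after the data were seen, and this sum, a different quantity, is counted among the repeats of Nat2. With only the 6 libraries compared, Nat1 did not pass the count filter in APP/PS1 against WT or in APP/PS1xRIPK1KD against APP/PS1 and has no value there.

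Counts over all genes moved more. In APP/PS1 against WT 3 genes were called, against 45 by DESeq2, 7 with no filter and 1 to 5 with a library left out. In APP/PS1xRIPK1KD against APP/PS1 it was 1, against 19 by DESeq2, 0 by limma-voom, 0 within replicates 1 and 2 and 0 to 4 with a library left out. In APP/PS1xRIPK1KD against WT it was 5, against 62 by DESeq2, 2 by limma-voom, 14 with no filter, 3 with only the 6 libraries compared, 8 within replicates 1 and 2 and 2 to 9 with a library left out. Members of the gene lists called numbered 0 in all comparisons, but 2 by DESeq2 in APP/PS1xRIPK1KD against WT, and 0 to 1 with a library left out in either comparison of APP/PS1xRIPK1KD, the 1 being Gsta4 without APP/PS1xRIPK1KD replicate 2. Of the 5 genes most like Nat2 by Pearson's r, 2 were among the first 5 by Spearman's rho and 0 by deviations from the genotype means, and of the 5 most like Tnfaip3 these were 3 and 1.

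Same-numbered libraries deviated together in 3 of 9 pairs (r over 0.1, with all 9 from -0.03 to 0.24), which is too few to take the numbers as pairing the mice. The 18 pairs with different numbers lay between -0.25 and 0.18, the highest being WT replicate 2 with APP/PS1xRIPK1KD replicate 1. The 3 same-numbered pairs over 0.1 were those of replicate 3 (0.10, 0.17 and 0.24). These are the libraries with Y-linked counts and little Xist, so this number does go with a shared feature. With the replicate number as a block, the log2 fold changes of Tnfaip3 were 0.77, -0.05 and 0.71 and those of Nat2 0.24, 0.06 and 0.30 in APP/PS1 against WT, APP/PS1xRIPK1KD against APP/PS1 and APP/PS1xRIPK1KD against WT. That of Nat1 was -1.17 in the last of these, and 0 genes were called in either comparison of APP/PS1xRIPK1KD.

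Nat1 levels under 0.0541 to 0.189 CPM, worth 3 counts, were not detectable. WT replicate 3, with 0 counts of Nat1, was deeper than WT replicate 2, with 55.43. The part of depth in the Nat1 counts was not tested. For Nat2 and Tnfaip3 the intervals come from 1 fit over all 9 libraries, not from the spread of the compared genotypes alone. Their SE was thus alike in the 3 comparisons, at 0.406 to 0.407 for Nat2 and 0.347 to 0.350 for Tnfaip3.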
